A study of Homo sapiens with 9 samples.

Results

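The enzymes that make serine and that carry its one-carbon unit through the folate pathway were followed in human adrenocortical NCI-H295R cells under 3 culture conditions. The group holds 10 genes, chosen by name from the pathway and found through the array's annotation: PHGDH, PSAT1, PSPH, SHMT1, SHMT2, MTHFD1, MTHFD2, MTHFD1L, ALDH1L1 and ALDH1L2. All 10 are among the 18417 genes that the arrays measured with a probe set assigned to 1 gene symbol. They have 12 such probe sets, with a pair each for PSPH and MTHFD2, and the brighter of a pair stands for the gene. A further 5 probe sets list PHGDH or MTHFD1L together with other genes and were not used to name either.

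H295R is a line from an adrenocortical carcinoma that still makes adrenal steroids. After 24 h of growth, cells spent 48 h in serum-free medium with 10 mM metformin, in serum-free medium alone (starvation) or in growth medium with serum (normal growth), with 3 arrays per condition labelled A, B and C. The growth medium also held insulin, transferrin and selenium, which the starvation medium lacked, so the loss of serum and the loss of these supplements cannot be told apart. The metformin cells were starved too, so their comparison with starvation concerns the drug, and their comparison with normal growth concerns drug and starvation together. The series' design text speaks of 3 independent experiments and does not say which arrays share one. Values are log2 signals after robust multi-array averaging (RMA), 1 unit being a 2-fold difference, and levels of different probe sets are not comparable with each other. Differences were tested with limma over all 33297 probe sets with Benjamini-Hochberg adjustment, and a gene was called higher or lower at an adjusted p under 0.05.

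Serine synthesis branches from glycolysis and runs through PHGDH, PSAT1 and PSPH. Serine hydroxymethyltransferase then splits serine into glycine and a one-carbon unit bound to tetrahydrofolate, in the cytosol through SHMT1 and in mitochondria through SHMT2. The one-carbon unit is oxidised, used for purine and thymidylate synthesis or released as formate by the MTHFD enzymes, of which MTHFD1 is cytosolic and MTHFD2 and MTHFD1L are mitochondrial. ALDH1L1 in the cytosol and ALDH1L2 in mitochondria end the chain by oxidising the unit to carbon dioxide with the formation of NADPH. Several of these genes are known targets of the transcription factor ATF4, the effector of the amino acid and mitochondrial stress responses, and metformin is known as an inhibitor of respiratory complex I. Fewer cells of a type and less RNA per cell cannot be told apart in such bulk samples.

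Promoter sequence was available for 7 of the 10 genes, in 11 windows of RefSeq (build GRCh38.p14), each from 250 bases before to 50 after an annotated start. Each window was searched on both strands for TGATGNAA, the letters of the composite site at which ATF4 is known to bind with a C/EBP partner, and for CACGTG, the E-box letters bound by MYC and related factors. The stretches before the start are shown for the gene of serine synthesis that rose, for the cytosolic ALDH1L1 that rose, for MTHFD1L, whose window holds both motifs, and for MTHFD1, whose signal was lower with metformin without passing the test. Capitals mark either motif.
PSAT1, chr9:78296875-78297124, plus strand: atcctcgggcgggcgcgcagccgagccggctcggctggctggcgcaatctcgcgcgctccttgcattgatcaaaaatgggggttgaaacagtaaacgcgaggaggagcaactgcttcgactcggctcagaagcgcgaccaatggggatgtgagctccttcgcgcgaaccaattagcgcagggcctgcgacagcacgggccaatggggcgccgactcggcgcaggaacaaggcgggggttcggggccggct
ALDH1L1, chr3:126180587-126180836, minus strand: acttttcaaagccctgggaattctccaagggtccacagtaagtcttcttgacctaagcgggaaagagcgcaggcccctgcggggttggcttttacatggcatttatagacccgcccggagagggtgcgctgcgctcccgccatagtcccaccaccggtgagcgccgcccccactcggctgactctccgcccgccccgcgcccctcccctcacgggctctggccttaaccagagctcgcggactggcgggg
MTHFD1L, chr6:150866236-150866485, plus strand: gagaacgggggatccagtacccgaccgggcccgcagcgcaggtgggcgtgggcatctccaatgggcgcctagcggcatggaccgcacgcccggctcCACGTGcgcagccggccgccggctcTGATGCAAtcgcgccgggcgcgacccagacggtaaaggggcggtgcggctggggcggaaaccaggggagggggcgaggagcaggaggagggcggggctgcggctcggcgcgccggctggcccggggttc
MTHFD1, chr14:64388103-64388352, plus strand: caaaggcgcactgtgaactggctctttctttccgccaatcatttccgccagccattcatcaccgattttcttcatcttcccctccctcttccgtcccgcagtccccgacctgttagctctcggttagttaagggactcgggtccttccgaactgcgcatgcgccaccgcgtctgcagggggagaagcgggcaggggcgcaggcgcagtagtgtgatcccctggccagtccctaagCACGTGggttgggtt
The TGATGNAA letters are in 3.62% of all 35116 promoter windows and the CACGTG letters in 7.26%. Counted by gene, 1217 of 27305 genes hold TGATGNAA and 2396 hold CACGTG. Among the 7 genes with windows, only MTHFD1L held TGATGNAA, as TGATGCAA at position -129 from the start (counted in bases, with the start at 0). This same stretch recurs in 2 overlapping windows of the gene, at position -90 and, after the start, at position 25. CACGTG stood in these same MTHFD1L windows, at position -154 in the one shown, and in that of MTHFD1, at position -15. A further MTHFD1L window, chr6:151006758-151007057, holds neither motif. The windows of PHGDH, PSAT1, MTHFD2, ALDH1L1 and SHMT1 hold neither set of letters, and SHMT2, PSPH and ALDH1L2 had no entry.

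In metformin against starvation, 4 of the 10 genes rose: PSAT1, SHMT2, ALDH1L1 and ALDH1L2. No member was called lower and 6 passed in neither direction. Of all named genes, 3.14% were called higher and 2.89% lower in this comparison. The median change of the 10 genes was 0.33, against -0.026 for all named genes. At a 2-fold minimum only ALDH1L2 was called, where 0.179% of all named genes were called higher at that size. The calls of PSAT1, SHMT2 and ALDH1L2 lay close to the threshold. Leaving out metformin array A or any 1 starvation array left 0 of the 10 genes and 0 of all probe sets called by limma, while 5 or 6 members were higher and 1 was lower at unadjusted p values below 0.05, as were 4948 to 5791 of the 33297 probe sets in either direction. With all arrays, 23.6% of named genes had such an unadjusted p. The methods' t-test called 0 members after adjustment (adjusted p = 0.0681 for ALDH1L1, 0.0982 for SHMT2, 0.12 for PSAT1 and 0.121 for ALDH1L2). Leaving out metformin array C left 1 member called, ALDH1L1. Shifting the arrays to a common median left 2 of the 4 calls, ALDH1L1 and ALDH1L2.

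**Figure D1:**
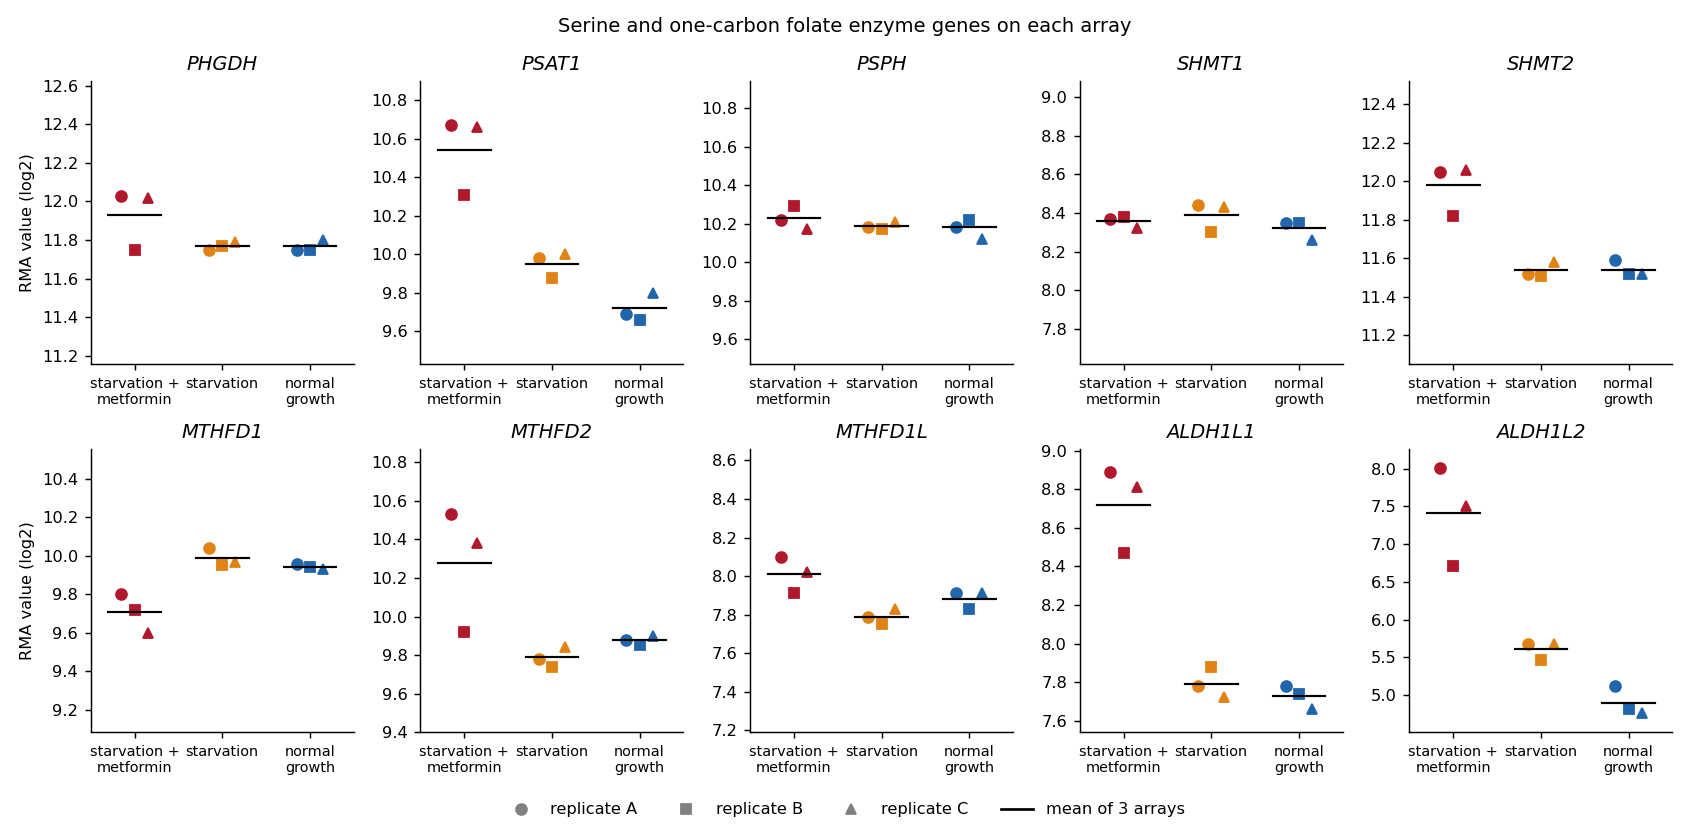
RMA values (log2, vertical axis) of the 10 genes on each of the 9 arrays, in cells starved with metformin (red), starved (orange) and under normal growth (blue), with a symbol for each replicate letter and a line at the mean of 3 arrays. Axes differ between panels. The 3 metformin arrays lie above all other arrays for PSAT1, SHMT2, ALDH1L1 and ALDH1L2, and array B is the lowest of the metformin arrays in 7 panels.

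Of the serine synthesis enzymes, only PSAT1 passed the test. PSAT1, the aminotransferase of the second step, had values of 10.67, 10.31 and 10.66 with metformin, against 9.98, 9.88 and 10.00 under starvation and 9.69, 9.66 and 9.80 under normal growth. All metformin arrays lay above all starvation arrays, which in turn lay above those of normal growth. The metformin minus starvation difference was 0.59 (SE 0.11), a 1.51-fold higher signal with an adjusted p = 0.048 from limma.

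PHGDH, the dehydrogenase of the first step, had 12.03, 11.75 and 12.02 with metformin, against 11.75, 11.77 and 11.79 under starvation and 11.75, 11.75 and 11.80 under normal growth. Metformin arrays A and C were above every other array, while B was just below the starvation arrays and within normal growth. The difference from starvation was 0.16 with a 95% interval from -0.06 to 0.38, and it did not pass (adjusted p = 0.395 from limma).

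The phosphatase of the last step, PSPH, had 10.22, 10.29 and 10.17 with metformin, against 10.18, 10.17 and 10.21 under starvation and 10.18, 10.22 and 10.12 under normal growth. The 3 groups overlapped, and the difference from starvation was 0.04 (95% interval -0.10 to 0.18). The dimmer PSPH probe set differed from the brighter one: it gave 9.32, 9.45 and 9.11 with metformin, against 9.66, 9.55 and 9.74 under starvation, a difference of -0.36 (SE 0.10, adjusted p = 0.128 from limma). The direction of PSPH thus depended on the probe set, and neither passed the test.

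Of the hydroxymethyltransferases, the mitochondrial form rose and the cytosolic form did not pass. Mitochondrial SHMT2 had 12.05, 11.82 and 12.06 with metformin, against 11.52, 11.51 and 11.58 under starvation and 11.59, 11.52 and 11.52 under normal growth. Every metformin array was above the other 6, whose groups overlapped. SHMT2 was 1.36-fold higher than under starvation (0.44, SE 0.08, adjusted p = 0.0459 from limma). Cytosolic SHMT1 had 8.37, 8.38 and 8.32 with metformin, against 8.44, 8.30 and 8.43 under starvation and 8.35, 8.35 and 8.26 under normal growth. Its groups overlapped, and the difference from starvation was -0.03 with a 95% interval from -0.19 to 0.12.

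Among the MTHFD enzymes no gene passed the test, and the cytosolic and mitochondrial forms had differences of opposite sign. MTHFD2, the mitochondrial dehydrogenase and cyclohydrolase, had 10.53, 9.92 and 10.38 with metformin, against 9.78, 9.74 and 9.84 under starvation and 9.88, 9.85 and 9.90 under normal growth. Metformin array B was only just above the rest, and the group's spread (SD 0.31, n = 3) was wider than that of the starved cells (SD 0.05, n = 3). The difference of 0.49 (SE 0.16) from starvation had an adjusted p = 0.158 from limma. A second MTHFD2 probe set gave 0.45 (SE 0.16, adjusted p = 0.20 from limma), also with array B the lowest of the metformin arrays. Without metformin array B, MTHFD2 was called higher (0.67, adjusted p = 0.0377 from limma).

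MTHFD1L, the mitochondrial formate-releasing synthetase, had 8.10, 7.91 and 8.02 with metformin, against 7.79, 7.75 and 7.83 under starvation and 7.91, 7.83 and 7.91 under normal growth. The metformin arrays were above the other 6, array B equalling the upper arrays of normal growth to 2 decimals, and the difference from starvation of 0.22 (SE 0.07) had an adjusted p = 0.142 from limma. MTHFD1, the cytosolic trifunctional enzyme, had 9.80, 9.72 and 9.60 with metformin, against 10.04, 9.95 and 9.97 under starvation and 9.96, 9.94 and 9.93 under normal growth. All metformin arrays were below the other 6. The difference from starvation was -0.28 (SE 0.07, adjusted p = 0.0933 from limma), and MTHFD1 was called lower in 5 of 16 alternative analyses.

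The formyltetrahydrofolate dehydrogenases showed the largest differences of the group. ALDH1L1, the cytosolic form, had 8.89, 8.47 and 8.81 with metformin, against 7.78, 7.88 and 7.72 under starvation and 7.78, 7.74 and 7.66 under normal growth. The metformin arrays were apart from the other 6, which overlapped, and the signal was 1.91-fold that of starvation (0.93, SE 0.12, adjusted p = 0.0219 from limma). ALDH1L2, the mitochondrial form, had 8.01, 6.71 and 7.50 with metformin, against 5.68, 5.47 and 5.68 under starvation and 5.12, 4.82 and 4.76 under normal growth. The 3 conditions were apart from each other, and metformin was 3.48-fold above starvation (1.80, SE 0.32, adjusted p = 0.0404 from limma).

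ALDH1L2 was above its array's median on the 3 metformin arrays and below it on the other 6, whereas the other members were above the median on all 9. Starvation arrays A and C gave ALDH1L2 the same value to 2 decimals, so its starvation group holds 2 distinct values. Background can make a fold too small where a signal is this dim.

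Against normal growth, the called genes were again PSAT1, SHMT2, ALDH1L1 and ALDH1L2, all higher with metformin, with no member lower. The background here was 6.15% of named genes called higher and 6.36% lower, and the median of the 10 genes was 0.28, against -0.02 for all named genes. This comparison shares its metformin arrays with the preceding one, so its calls are not independent of it. The differences were 2.51 (SE 0.32, adjusted p = 0.0123 from limma) for ALDH1L2, 0.99 (SE 0.12, adjusted p = 0.00988) for ALDH1L1, 0.83 (SE 0.11, adjusted p = 0.0137) for PSAT1 and 0.44 (SE 0.08, adjusted p = 0.029) for SHMT2. ALDH1L2 was 5.69-fold higher and was again the only member past 2-fold, a size at which 0.32% of named genes were called higher. MTHFD1 did not pass (-0.24, SE 0.07, adjusted p = 0.085 from limma). PHGDH, MTHFD2, MTHFD1L, PSPH and SHMT1 had differences between 0.04 and 0.40 and did not pass. Without metformin array A, and likewise without array C, SHMT2 lost its call and 3 members kept theirs. Leaving out any 1 array of normal growth left 0 of the 10 genes called by limma, although 439 to 511 probe sets were. At unadjusted p values below 0.05, 4 members were then higher and 1 lower, and 5924 to 6237 of the 33297 probe sets passed in either direction, beside 28.5% of named genes with all arrays. The methods' t-test called 1 member after adjustment, ALDH1L1 (adjusted p = 0.0454).

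**Figure D2:**
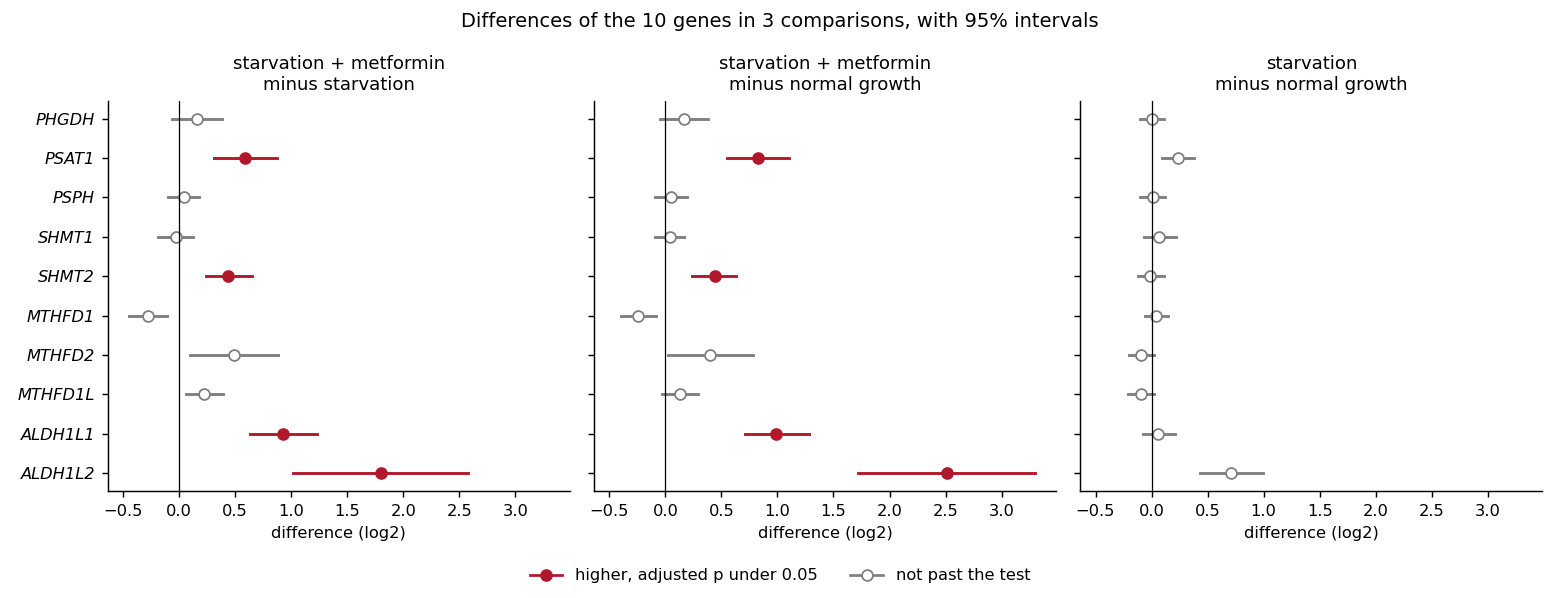
Difference of each gene in the 3 comparisons (log2, horizontal axis), first condition minus second, with the 95% interval of the limma fit. Filled red points are genes called at an adjusted p under 0.05 and open grey points did not pass. PSAT1, SHMT2, ALDH1L1 and ALDH1L2 are red in both comparisons with metformin and no gene is red in starvation minus normal growth.

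Starvation without the drug gave no call among the 10 genes. Of all named genes, 0.0652% were called higher and 0.163% lower in starvation against normal growth, and the methods' t-test also called 0 members after adjustment. At an unadjusted p under 0.05, 2 members, ALDH1L2 and PSAT1, were higher, and 9.88% of all named genes passed in either direction. ALDH1L2 differed by 0.71 (SE 0.11, 95% interval 0.43 to 0.99, adjusted p = 0.146 from limma). PSAT1 differed by 0.24 (SE 0.06, 95% interval 0.09 to 0.38, adjusted p = 0.322 from limma). Both had all starvation arrays above all arrays of normal growth. The other 8 genes differed by between -0.09 and 0.07. Of these, MTHFD2 had all starvation arrays below all of normal growth (-0.09, adjusted p = 0.725 from limma). Its second probe set overlapped (-0.02, adjusted p = 0.947 from limma). How many of all named genes separate in either direction was not counted. This comparison shares its starvation arrays with metformin against starvation, where a low starvation value raises the metformin difference and lowers this one.

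**Figure D3:**
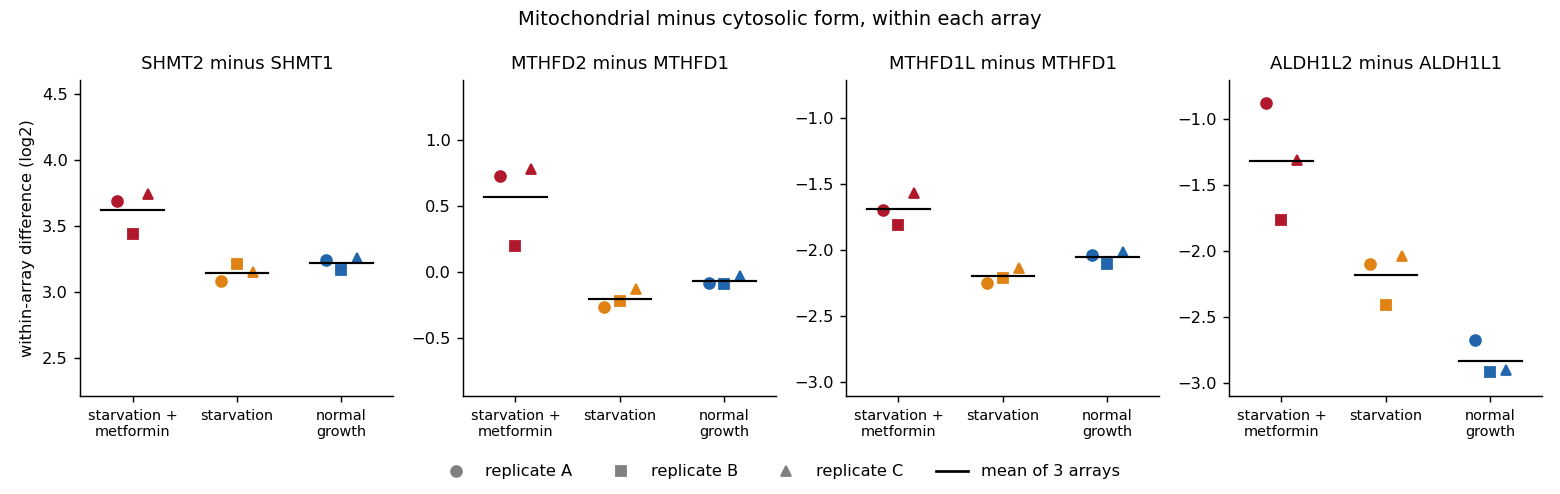
Mitochondrial minus cytosolic form of 4 pairs within each array (log2, vertical axis), by condition, with a symbol for each replicate letter and a line at the mean of 3 arrays. All panels span the same range. In each panel the 3 metformin arrays lie above the 3 starvation arrays and the 3 of normal growth.

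The change of the mitochondrial relative to the cytosolic form was taken within each array, where array-wide shifts cancel. The differences between groups were compared by two-sided exact permutation tests, whose smallest p with 3 arrays against 3 is 0.1. No pair could thus reach 0.05. The 95% intervals beside these p values are ordinary t intervals with the variance pooled over both groups. They are not results of the permutation test and do not replace it. For SHMT2 minus SHMT1, the within-array differences were 3.69, 3.44 and 3.74 with metformin, against 3.08, 3.21 and 3.15 under starvation, a shift of 0.48 (95% interval 0.20 to 0.76, exact p = 0.1, adjusted p = 0.109 over 12 tests). MTHFD2 minus MTHFD1 was 0.73, 0.20 and 0.78 with metformin, against -0.26, -0.22 and -0.13 under starvation, a shift of 0.77 (95% interval 0.24 to 1.30, exact p = 0.1). MTHFD1L minus MTHFD1 shifted by 0.50 (95% interval 0.29 to 0.72, exact p = 0.1) and ALDH1L2 minus ALDH1L1 by 0.87 (95% interval 0.10 to 1.64, exact p = 0.1). In all 4 pairs every metformin array lay above every starvation array. The pairs of MTHFD2 and of MTHFD1L both subtract MTHFD1, so they are not independent of each other. How many of all gene pairs separate in this way was not counted in either comparison with metformin. Against normal growth the shifts with metformin were 0.40 for SHMT2 minus SHMT1, 0.63 for MTHFD2 minus MTHFD1, 0.36 for MTHFD1L minus MTHFD1 and 1.51 for ALDH1L2 minus ALDH1L1, also with no overlap.

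In starved cells without the drug, SHMT2 minus SHMT1 overlapped with normal growth (-0.08, exact p = 0.2). ALDH1L2 minus ALDH1L1 was 0.64 above normal growth (95% interval 0.26 to 1.03, exact p = 0.1). MTHFD2 minus MTHFD1 and MTHFD1L minus MTHFD1 were each 0.14 below it (log2 shifts of -0.14 each, exact p = 0.1), with all starvation arrays below all of normal growth.

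The metformin arrays differed in how far these genes moved. Array B was the lowest of the 3 in 7 of the 10 genes: PHGDH, PSAT1, SHMT2, MTHFD2, MTHFD1L, ALDH1L1 and ALDH1L2. Array A was the highest of the 3 in 7 of the 10: PHGDH, PSAT1, MTHFD1, MTHFD2, MTHFD1L, ALDH1L1 and ALDH1L2. How often either holds over all named genes was not counted. Relative to starvation, the change on array B was 49.6% of the mean change on arrays A and C for PSAT1, 54.2% for SHMT2, 20.8% for MTHFD2, 63.9% for ALDH1L1 and 51.4% for ALDH1L2. Over the 714 probe sets that limma called without array B, the median was 75.0%, and treating array C in the same way gave a median of 80.7% over 1189 probe sets. Probe sets chosen on the other arrays can show a smaller change on any array left out. Correlations over all probe sets were 0.99 to 0.995 among the metformin arrays, 0.994 to 0.997 among the starvation arrays and 0.996 to 0.997 among those of normal growth. In the limma fit with array weights, a larger weight marking an array closer to the fit, array B had 1.80, array A 0.631 and array C 0.43.

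As for the cells themselves, 9 of 12 measured adrenocortical markers were above the array median on all arrays. The mean of the marker list was 9.18 to 9.41 with metformin, 9.38 to 9.44 under starvation and 9.64 to 9.73 under normal growth, and its part in the differences of PSAT1, SHMT2, ALDH1L1 and ALDH1L2 was not tested. In starvation against normal growth, 0 adrenocortical markers were higher and 1 was lower, with a list median of -0.16. Metformin against normal growth had 1 higher and 4 lower, with a list median of -0.17. Against starvation, 1 adrenocortical marker was higher with metformin, 3 were lower and 8 did not pass, with a list median of -0.04. The one higher was MC2R, the corticotropin receptor (1.02, adjusted p = 0.0389 from limma). The ones lower were the steroidogenic transcription factor NR5A1 (-0.46, adjusted p = 0.0196), the sulfotransferase SULT2A1 (-0.82, adjusted p = 0.0145) and HSD3B2, the steroid dehydrogenase needed for glucocorticoids and mineralocorticoids (-1.33, adjusted p = 0.0212 from limma). Markers of fibroblasts (6 of 9), endothelium (7 of 8), immune cells (6 of 7), chromaffin cells (3 of 5) and epithelia (2 of 6) were below the array median on all arrays. Above it on all arrays were 3 fibroblast, 1 endothelial, 0 immune, 1 chromaffin and 3 epithelial markers. None of the markers of these 5 cell types was called in metformin against starvation or in starvation against normal growth. Against normal growth, 1 epithelial marker, EPCAM, was higher with metformin (0.57, SE 0.11, adjusted p = 0.0342 from limma). The fibroblast list averaged 4.92 to 5.05 on the metformin arrays, against 4.97 to 5.02 under starvation, the endothelial list 4.45 to 4.66, against 4.47 to 4.68, and the immune list 4.35 to 4.50, against 4.34 to 4.56. The chromaffin list averaged 5.93 to 6.20 with metformin, against 6.04 to 6.23 under starvation, and the epithelial list 6.02 to 6.30, against 6.18 to 6.41. The metformin and starvation ranges overlap for every list. Under normal growth the fibroblast list averaged 5.08 to 5.10, above both, while the other lists of these cell types overlapped with both.

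Lists of neighbouring pathways had few called genes. Of 12 measured genes of folate uptake and cycling, 1 fell with metformin against starvation and 0 rose. This was TYMS, thymidylate synthase, which uses methylene-tetrahydrofolate to make thymidylate: it had 10.33, 10.49 and 10.36 with metformin, against 10.99, 10.96 and 10.97 under starvation (-0.58, SE 0.06, adjusted p = 0.0169 from limma). Its groups did not overlap. Against normal growth SLC19A1, the reduced folate carrier, was lower as well (-0.33, SE 0.05, adjusted p = 0.0151 from limma).

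Of the 12 measured genes of de novo purine synthesis, which consumes formyl-tetrahydrofolate, 1 rose and 1 fell against starvation. GART, the trifunctional enzyme that holds the first of the formyl transfers, was lower (-0.33, SE 0.06, adjusted p = 0.0444 from limma). IMPDH2, which commits inosinate to guanine nucleotides and uses no folate, was higher, with 9.54, 9.35 and 9.45 with metformin, against 8.74, 8.71 and 8.74 under starvation (0.71, SE 0.07, adjusted p = 0.0145 from limma). PFAS and PAICS, further enzymes of the route, were lower in metformin against normal growth (-0.31, adjusted p = 0.0201, and -0.40, adjusted p = 0.0214, both from limma). The list's median was -0.10 against starvation, beside -0.026 for all named genes.

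Transsulfuration uses serine and leads to cysteine. In the list of transsulfuration and glutathione synthesis, 1 of 6 measured genes rose and none fell against starvation. CBS, also listed, had no probe set assigned to it alone and was not measured. CTH, cystathionine gamma-lyase, had 6.47, 6.47 and 6.25 with metformin, against 5.56, 5.21 and 5.52 under starvation and 5.55, 5.43 and 5.31 under normal growth. The metformin arrays were apart from the rest, and the difference from starvation was 0.97 (SE 0.12, adjusted p = 0.0197 from limma). The list's median was 0.34, near the 0.33 of the 10 serine and folate enzymes.

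The remaining lists held few calls. Of 13 methionine cycle genes, AHCYL1 and AHCYL2, relatives of S-adenosylhomocysteine hydrolase, rose against starvation (0.26, adjusted p = 0.0473, and 0.28, adjusted p = 0.0461, from limma), and 11 did not pass. None of 6 genes of glycine cleavage and glycine use, 11 of serine transport and use, 4 of choline oxidation and 6 of glycolysis passed in metformin against starvation. DMGDH, the mitochondrial dimethylglycine dehydrogenase that hands one-carbon units to folate, had 6.43, 5.12 and 5.76 with metformin, against 4.20, 4.31 and 4.06 under starvation and 4.29, 4.02 and 3.97 under normal growth. It passed against normal growth (1.68, SE 0.32, adjusted p = 0.0319 from limma) and not against starvation (1.58, SE 0.32, adjusted p = 0.0548). Against normal growth, ENO1 and PKM of glycolysis were lower (-0.34, adjusted p = 0.0131, and -0.32, adjusted p = 0.0199, from limma), as was SARS2, the mitochondrial seryl-tRNA synthetase (-0.36, adjusted p = 0.0164). No gene of any of these pathway lists was called in starvation against normal growth.

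**Figure D4:**
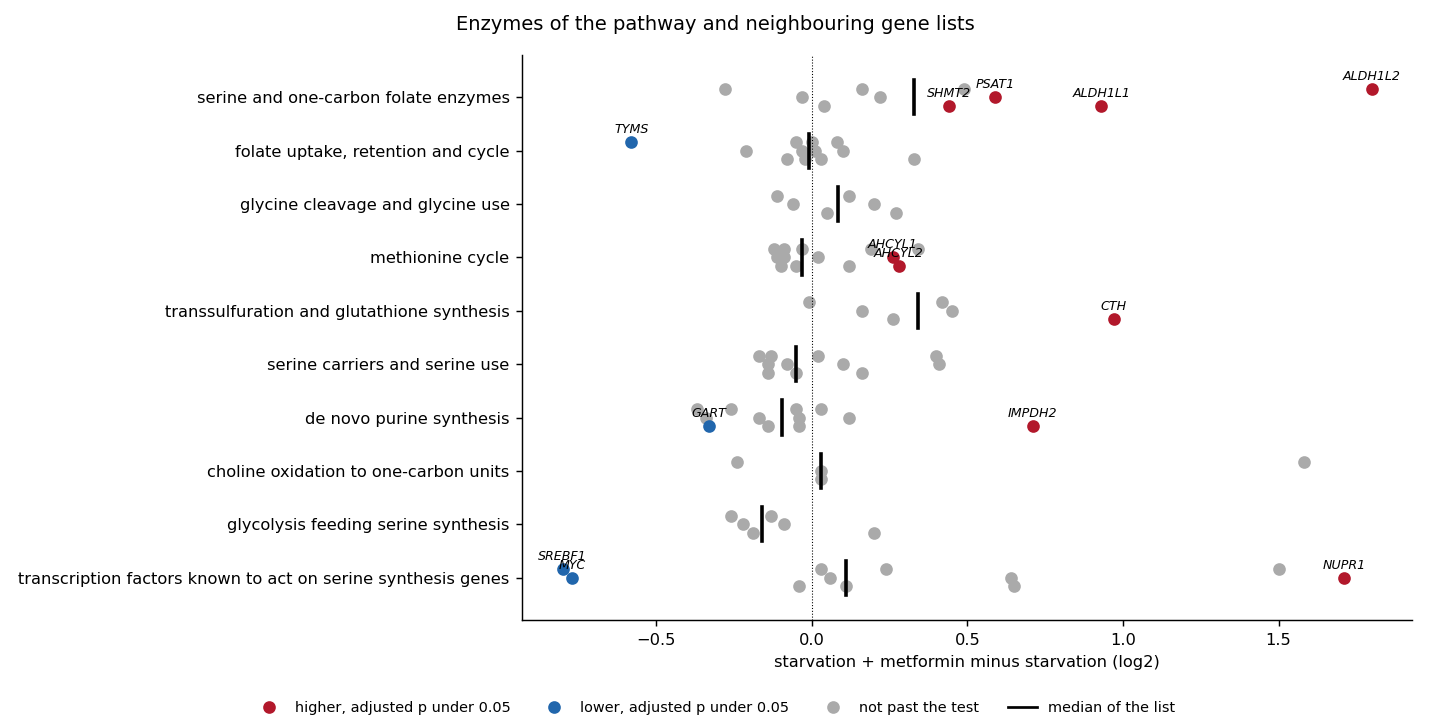
Difference of each measured gene in starvation with metformin minus starvation (log2, horizontal axis), for the 10 enzymes in the top row and for 9 lists of neighbouring genes below, with a line at each list's median. Red and blue points were called higher and lower at an adjusted p under 0.05 and are named, and grey points did not pass. The 10 enzymes have a median of 0.33 and 4 red points, and the folate uptake and cycle list has 1 blue point, TYMS.

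The transcription factors known to act on these genes were mixed. Of 11 measured, 1 rose (NUPR1) and 2 fell (MYC and SREBF1) in metformin against starvation. NUPR1, a stress-induced chromatin protein, had 8.94, 8.28 and 8.92 with metformin, against 7.02, 7.10 and 6.90 under starvation (1.71, SE 0.19, adjusted p = 0.0174 from limma). ATF4 messenger RNA had 10.09, 9.62 and 10.01 with metformin, against 9.81, 9.78 and 9.81 under starvation, with array B below and arrays A and C above (0.11, SE 0.13, adjusted p = 0.708 from limma). ATF4 is known to be controlled largely in translation, which an array does not measure. DDIT3, a stress factor induced by ATF4, had 10.80, 9.70 and 10.75 with metformin, against 8.99, 8.78 and 8.97 under starvation and 8.59, 8.81 and 8.71 under normal growth. Its metformin arrays were apart from the other 6, and it passed against normal growth (1.71, adjusted p = 0.0256 from limma) but not against starvation (1.50, adjusted p = 0.055). MYC fell by 0.77 (SE 0.09, adjusted p = 0.0183 from limma) and SREBF1, a lipid synthesis factor, fell by 0.80 (SE 0.11, adjusted p = 0.024 from limma) against starvation. CEBPG and CEBPB, partners of ATF4, had differences of 0.65 (adjusted p = 0.105) and 0.64 (adjusted p = 0.113 from limma).

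ALDH1L2 was the only member whose group means spanned at least 1 log2 unit. The named genes closest to its pattern, by the root mean square difference over the 9 arrays after centring each gene on normal growth, were GPC4 (0.36), NUPR1 (0.39) and GPAT3 (0.45). GPC4 is a cell surface glypican and GPAT3 an acyltransferase of triglyceride synthesis. GPC4 averaged 9.37 with metformin, against 7.61 under starvation and 7.10 under normal growth. NUPR1 averaged 8.71 with metformin, against 7.01 under starvation and 6.64 under normal growth, and GPAT3 averaged 8.09 with metformin, against 6.77 under starvation and 6.26 under normal growth. Likeness was the rule of choice here, so these values describe the genes and test nothing.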

How the data were processed

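The authors deposited log2 expression values of 9 arrays (GeneChip Human Gene 1.0 ST), made with RMA (background correction, quantile normalization and median polish). Per the submitters' processing notes the tools were limma, RMA and Affymetrix Expression Console; the sources used here give no versions. Array medians lay between 6.04 and 6.16. Arrays have no sequencing depth, and 3 arrays per group limit precision. No further normalization was applied.

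Pairs of groups were compared on their 6 arrays in limma 3.58.1 (R 4.3.3; lmFit, then eBayes), adjusted by Benjamini-Hochberg over all 33297 probe sets, and the code was tested on simulated data. Genes were named from the 19460 probe sets with 1 symbol (1754 have several, 12083 none), of which 19429 were found by Entrez identifier in RefSeq. A gene with several probe sets was represented by the brightest. Intervals are 95% intervals of single differences, from the limma fit for genes and from a pooled-variance t for the paralog pairs. Named genes were the 10 members, up to 4 called genes with the largest change per pathway list, and the 3 genes most like any member whose group means differ by at least 1 log2 unit. The adrenocortical markers, EPCAM and the transcription factors that did not pass were chosen after their values were seen, as was the probe set pair of PSPH. Protein sequences are not analysed here. The members and lists were chosen with earlier results of these data known. The alternatives were all 9 arrays in 1 fit, quantile normalization again and a common median. Others were probe sets above the 40th percentile or with 1 symbol only, averaged probe sets per gene, and eBayes with trend and robust. A block on the replicate letter, Student's t-test with pooled variance and leaving out each array were also run. Array weights were chosen after seeing the data.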

Additional observations from a re-analysis of the deposited data

How the results depend on the processing

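Of the 10 genes, 4 were called in metformin against starvation. The count was 4 or 5 with all 9 arrays in one fit, quantile normalization again, removal of dim probe sets, 1-symbol probe sets, the mean of probe sets, trend and robust options, or array weights, where the fifth gene was MTHFD1, lower. It was 2 with arrays shifted to a common median. With Student's t-test it was 0, with 5 higher and 1 lower before adjustment, beside 5905 probe sets. When 1 array was left out it was 0 to 5. It was 0 without metformin array A or any 1 starvation array, 1 without metformin array C and 5 without array B. In metformin against normal growth the count was also 4. It was 4 or 5 under those same 7 settings and a common median, and 1 (ALDH1L1) with Student's t-test. When 1 array was left out it was 0 to 5. It was 0 without any 1 array of normal growth, 3 without metformin array A or C and 5 without array B. With the replicate letter as a replicate block the count was 0 in both comparisons with metformin, as 0 of all probe sets were called. At unadjusted p values below 0.05, 6 and 5 members were then higher and 1 was lower. At that level 5698 and 6899 of the 33297 probe sets passed in either direction. The letters are not stated to pair arrays. Same-letter deviations of metformin and starvation arrays correlated at 0.29, -0.14 and -0.25, and different-letter ones at -0.38 to 0.44. In starvation against normal growth the count was 0 under every alternative run; ALDH1L2 has no value there once dim probe sets are removed. In both comparisons with metformin the directions of the 4 called genes, and in all 3 comparisons those of the paralog pairs, held under every alternative run. The pairs were run under 8 alternatives only. Groups that do not overlap cannot change direction when 1 array is left out. The block, the t-test and the eBayes options keep the same differences. The held directions are thus little evidence of robustness. Changes of sign occurred for differences that passed under no setting: PSPH at -0.16 and -0.11 with the mean of its probe sets, against starvation and normal growth, and in starvation against normal growth SHMT2 at 0.00 with array weights and, when 1 array was left out, PHGDH at -0.01 to 0.02, PSPH at -0.02 to 0.03 and SHMT2 at -0.03 to 0.02. Over alternatives the adjusted p against starvation ran from 0.0101 to 0.169 for PSAT1, 0.00862 to 0.174 for SHMT2, 0.00236 to 0.12 for ALDH1L1, 0.00708 to 0.157 for ALDH1L2, 0.0252 to 0.27 for MTHFD1 and 0.0377 to 0.339 for MTHFD2. Over all probe sets, limma called 1425 in metformin against starvation, and 0 to 3368 under the alternatives. The causes of these changes were not tested. The dim ALDH1L2 signal outside the metformin arrays limits how well its fold is measured.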
